A study of Homo sapiens with 24 samples.

Results

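The bile acid receptor FXR and the genes around it were followed through 24 RNA-seq libraries of HepG2 cells, a human cell line from a liver cancer. The 10 genes were listed by name, with earlier results of these data known, and they were found as 10 of the 26475 gene symbols counted. They are the receptor itself (NR1H4), its target NR0B2, the synthesis enzymes CYP7A1, CYP8B1 and AKR1D1, the transporters SLC51A, SLC51B, ABCB11 and ABCB4, and the hormone FGF19.

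The libraries fall into 8 groups of 3 replicates. The groups without interferon are the solvent DMSO, ABBV-075 at 50 nM, and ABBV-744 at 50 nM (low dose) and 500 nM (high dose). The other groups received interferon gamma (IFNg), alone or with ABBV-075 at 50 nM, ABBV-744 at 50 nM or ABBV-744 at 500 nM. ABBV-075 blocks the bromodomains of the BET proteins, readers of acetylated histones that help to switch on transcription, whereas ABBV-744 is selective for the second of the bromodomains. The methods of the study give 12 h of treatment for ABBV-075 and, as they read, 24 h for DMSO, so that in this comparison the compound and a difference in time cannot be told apart. The treatment times of the groups with ABBV-744 or IFNg and the IFNg dose are not given in the sources used here, so that equal times for ABBV-075 and ABBV-744 cannot be assumed either. No group is labelled as having received a bile acid or an FXR agonist, and all libraries come from the same single cell line. The methods describe DMSO and ABBV-075 samples as independent samples of repeated treatments. The sources used here do not say whether the DMSO libraries of this series are those samples, for their independence or their treatment time. For the other groups nothing says that replicates were separate cultures, so their p-values measure the spread between these libraries, which may be technical.

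FXR is a nuclear receptor that binds bile acids and, paired with RXR, activates genes that carry bile acids out of the hepatocyte. One of its targets is NR0B2 (SHP), a repressor of CYP7A1 and CYP8B1, by which bile acids limit their own synthesis. CYP7A1 starts the classical synthesis pathway, CYP8B1 directs it toward cholic acid, and AKR1D1 reduces the double bond of the sterol ring. ABCB11 exports bile salts and ABCB4 phospholipid into bile, SLC51A and SLC51B together form a bile acid exporter of the basolateral membrane, and FGF19 is the hormone that carries the FXR signal from the intestine to the liver.

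The bases upstream of RefSeq start sites show what lies before these genes and where letters like those FXR binds occur. FXR with RXR prefers an inverted repeat of the core motif AGGTCA with 1 base between the copies, and both were searched on both strands in windows of 300 bases around the start sites. Promoter windows were given for 5 of the 10 genes (NR1H4, AKR1D1, SLC51A, SLC51B and ABCB11). The core motif was found in 2 of these 5 windows and in 13.8% of all 35116 promoter windows. The inverted repeat AGGTCANTGACCT with at most 2 mismatches, which can overlap the core motif, was found in 2 of the 5 and in 1.12% of all windows. Below are the 250 bases before the start site, 5′ to 3′ in GRCh38.p14, of the transporters with such a match, of the receptor, and of AKR1D1, which has no match. Capitals mark the matched letters.
SLC51B: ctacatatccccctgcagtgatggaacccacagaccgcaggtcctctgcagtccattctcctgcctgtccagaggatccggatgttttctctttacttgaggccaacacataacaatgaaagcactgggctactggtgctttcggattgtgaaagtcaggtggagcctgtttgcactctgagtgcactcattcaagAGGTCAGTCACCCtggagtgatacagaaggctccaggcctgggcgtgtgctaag
ABCB11: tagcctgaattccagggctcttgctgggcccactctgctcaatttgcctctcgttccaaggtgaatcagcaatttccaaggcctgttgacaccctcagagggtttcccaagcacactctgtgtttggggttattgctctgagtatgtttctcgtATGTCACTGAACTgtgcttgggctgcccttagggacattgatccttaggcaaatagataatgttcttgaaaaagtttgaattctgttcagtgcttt
NR1H4: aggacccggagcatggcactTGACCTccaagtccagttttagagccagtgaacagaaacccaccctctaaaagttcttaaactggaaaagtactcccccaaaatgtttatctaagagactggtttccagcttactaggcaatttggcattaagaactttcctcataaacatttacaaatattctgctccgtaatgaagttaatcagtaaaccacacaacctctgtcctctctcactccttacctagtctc
AKR1D1: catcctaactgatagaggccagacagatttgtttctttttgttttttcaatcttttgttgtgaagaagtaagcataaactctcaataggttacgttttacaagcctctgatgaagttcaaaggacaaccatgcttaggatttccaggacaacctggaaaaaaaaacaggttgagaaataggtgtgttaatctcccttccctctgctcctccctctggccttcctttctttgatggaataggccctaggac

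The SLC51B stretch lies at chr15:65045137-65045386 on the plus strand and holds the core motif and an inverted repeat with 2 mismatches, both beginning 54 bases before the start site. The ABCB11 stretch (chr2:169031325-169031574, minus strand) holds an inverted repeat with 2 mismatches 96 bases before the start site. The NR1H4 stretch (chr12:100503110-100503359, plus strand) holds 1 core motif on the reverse strand, 230 bases upstream, and no inverted repeat. The AKR1D1 stretch is at chr7:138076209-138076458 on the plus strand. For NR1H4 and AKR1D1 the RefSeq start site lies inside the longer gene span of GENCODE, so other start sites exist. A match of letters is a description of the sequence and not a measured binding site.

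Between 2978982 and 4304103 reads per library were counted on genes (median 3462418.5), of which 406 to 786 per library fell on the 10 genes, so most of these genes were measured from few reads. Reads aligning to several places, which were not counted on genes, made up 56.0% to 69.4% of the reads in the files. Levels are given as CPM, which are counts scaled to equal library size after TMM normalization over the 24 libraries. All 9 hepatocyte markers had at least 10 counts in every library, and their summed level was 19609 to 26985 CPM. Of 3 blood cell markers, CD3E and PTPRC were at 0 in all libraries, whereas CD68 was at 7.40 to 22.7 CPM. CD68 was called lower with ABBV-075 (log2 fold change -0.81) and with each inhibitor treatment given with IFNg (-1.27 to -1.11), beside the gene groups below, and its part in their values was not tested. Of 3 endothelial markers KDR was at 0 in all libraries and the sum reached at most 2.14 CPM. Of 3 fibroblast and stellate cell markers COL3A1 and DCN were at 0, and the sum reached at most 0.634 CPM. The 4 cholangiocyte markers were all detected, with sums of 263 to 482 CPM. The 10 IFNg response genes summed to 183 to 256 CPM in libraries without IFNg and to 2380 to 3313 CPM in those with it. HEXIM1, a gene that rises when BET proteins are blocked, was at 50.5 to 56.7 CPM with DMSO and at 137 to 152 CPM with ABBV-075. In bulk RNA, a lower level in every cell and fewer cells with the transcript cannot be told apart.

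A property of the libraries moves with several results, of ABBV-744 and also of ABBV-075. The correlation across genes between a library's deviation from the DMSO mean, in log2 CPM, and the GC content of the gene ran from -0.23 to 0.24 in the DMSO libraries and from 0.34 to 0.60 with ABBV-744 at 50 nM. It ran from -0.51 to -0.48 with IFNg + ABBV-744 at 50 nM and from -0.44 to -0.24 with IFNg + ABBV-744 at 500 nM, compared with -0.04 to 0.31 for IFNg alone. The range was 0.04 to 0.50 with ABBV-744 at 500 nM. With ABBV-075 it was -0.43 to -5.1e-04, and with IFNg + ABBV-075 it was -0.36 to -0.14. NR1H4 (40.6% GC) and AKR1D1 (40.5%) are rich in A and T, while NR0B2 (59.3%) is rich in G and C. Values from a fit that removes this trend within each library are therefore given beside many of the results, as GC-corrected values. The part of the trend in those results was not tested.

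In the DMSO libraries, NR0B2 was the member with the most RNA per length, at a mean of 63.8 CPM per kb, followed by NR1H4 at 19.7 and SLC51B at 10.4 CPM per kb. AKR1D1 (4.23 CPM per kb) and ABCB4 (3.13 CPM per kb) came next. CYP8B1 (0.995 CPM per kb), CYP7A1 (0.828 CPM per kb) and SLC51A (0.321 CPM per kb) rested on few reads. FGF19 was at 0.0490 CPM per kb, with at most 2 counts in any of the 24 libraries, and ABCB11 had 0 counts in all of them. A count of 0 allows up to 3 counts per group, a limit for counting error only. The main bile salt exporter of hepatocytes was thus not detectable here at this depth, and no change of ABCB11 or FGF19 could be measured.

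**Figure D1:**
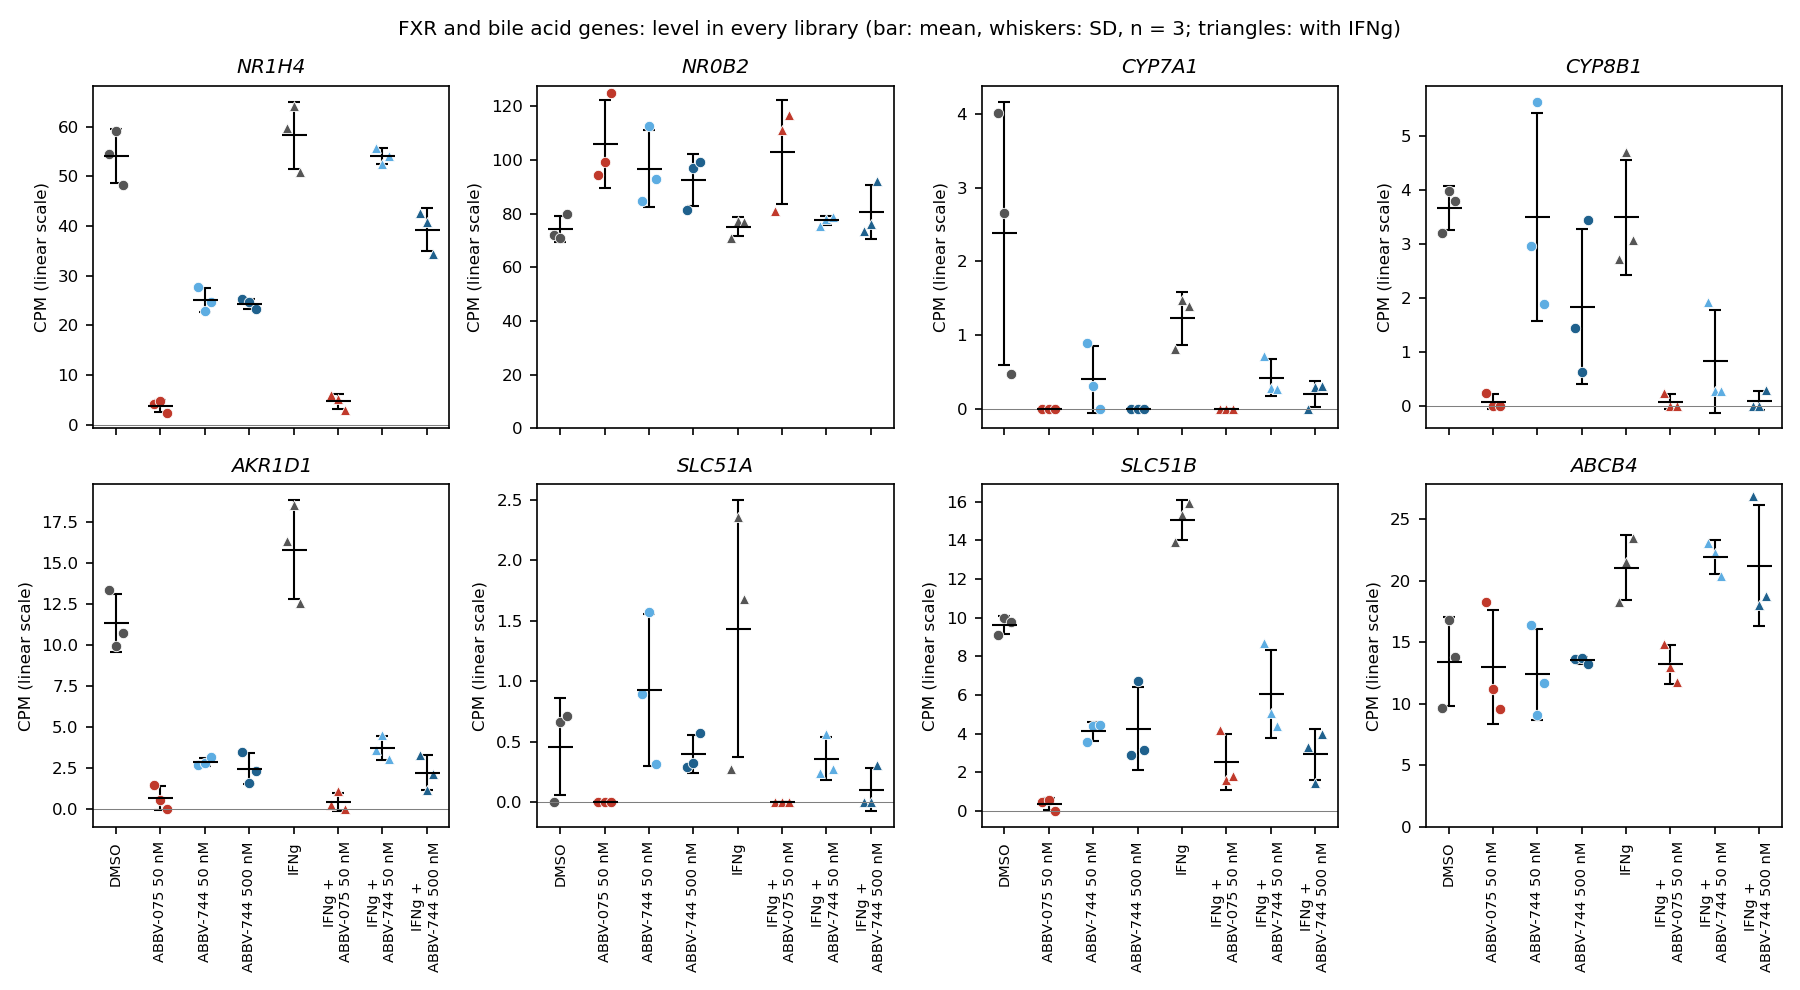
Levels of 8 of the genes in CPM (vertical axes, linear, 1 panel a gene) in each of the 24 libraries by treatment group. Points are libraries, triangles mark groups with IFNg, and bars are group means with the SD of 3 libraries. NR1H4 lies between 2.40 and 5.95 CPM in the 6 libraries with ABBV-075 and between 48.3 and 64.2 CPM in those with DMSO or IFNg alone, whereas NR0B2 shows no such fall.

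The first question is what the inhibitors alone did to these genes. With ABBV-075, NR1H4, CYP8B1, AKR1D1 and SLC51B fell by more than 10-fold, NR0B2 rose by 1.41-fold and ABCB4 did not differ. Both doses of ABBV-744 lowered NR1H4, AKR1D1 and SLC51B, by 2.13-fold to 4.48-fold. Each comparison used edgeR's quasi-likelihood test on the 6 libraries concerned, with Benjamini-Hochberg adjustment over all genes tested. A gene was called at an adjusted p of at most 0.05.

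For ABBV-075, 6 of the 10 genes had enough counts to be tested, of which 4 were called lower and 1 higher, while 19.6% of all genes tested were called lower and 19.8% higher. For ABBV-744 at 50 nM, 3 of 6 were called lower, against 10.1% of all genes, and 1 higher, against 8.81%. For the 500 nM dose, 3 of 6 were called lower and 1 higher, against 7.8% and 7.48% of all genes. With the thresholds of the study, which also ask for a log2 fold change of 1.5 or more in size, ABBV-075 left 4 of these genes as lower, and 3.19% of all genes. The same thresholds left only AKR1D1 for each dose of ABBV-744, where 0.189% (50 nM) and 0.315% (500 nM) of all genes passed as lower. Of all calls, 53.4% were lower for ABBV-744 at 50 nM and 51.1% at 500 nM, and 74.6% and 69.2% when libraries were scaled by size only, which moved the median of all genes from 5.6e-04 to -0.10 at 50 nM. These comparisons share the same DMSO libraries.

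NR1H4, which encodes FXR, lies on chromosome 12 from 100473708 to 100564414 (GRCh38, plus strand). Its level was 54.6, 59.2 and 48.3 CPM in the DMSO libraries. With ABBV-075 it was 4.09, 4.87 and 2.40 CPM, from 8 to 17 counts a library. All ABBV-075 libraries lay far below all DMSO libraries, and the level was 14.3-fold lower (95% confidence interval 10.3 to 19.8, log2 fold change -3.83, standard error 0.22, adjusted p = 2.63e-07). With ABBV-744 at 50 nM, NR1H4 was at 27.7, 22.9 and 24.7 CPM. At 500 nM it was at 25.2, 24.6 and 23.2 CPM. Neither dose overlapped with DMSO, and the reductions were 2.13-fold (1.75 to 2.60, adjusted p = 6.50e-06) and 2.21-fold (1.82 to 2.68, adjusted p = 6.57e-07). The GC-corrected log2 fold changes were -4.10 for ABBV-075, -0.85 for ABBV-744 at 50 nM and -1.01 at 500 nM, all of them called.

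NR0B2, the repressor that FXR induces, lies on chromosome 1 from 26911489 to 26913975 (minus strand). It went the other way from its activator. Its level was 72.0, 70.9 and 80.0 CPM with DMSO and 94.4, 99.1 and 125 CPM with ABBV-075, without overlap. The rise was 1.41-fold (1.14 to 1.73, adjusted p = 0.0147), and the GC-corrected log2 fold change was 0.64 against 0.49 in the uncorrected fit. Without DMSO replicate 1 or DMSO replicate 2 the call was lost, with an adjusted p of up to 0.0713. With ABBV-744, NR0B2 was at 84.8, 113 and 92.9 CPM at 50 nM. At 500 nM it was at 81.5, 96.9 and 99.3 CPM. All of these libraries lay above all DMSO libraries, and the fitted rises were 1.32-fold (adjusted p = 0.0204) and 1.25-fold (adjusted p = 0.0417). These calls were lost with the GC correction (log2 fold change 0.17 with adjusted p = 0.268 at 50 nM, and 0.18 with adjusted p = 0.151 at 500 nM) and in 4 of 6 and 5 of 6 fits that left out 1 library. NR0B2 was therefore not called lower with any inhibitor.

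**Figure D2:**
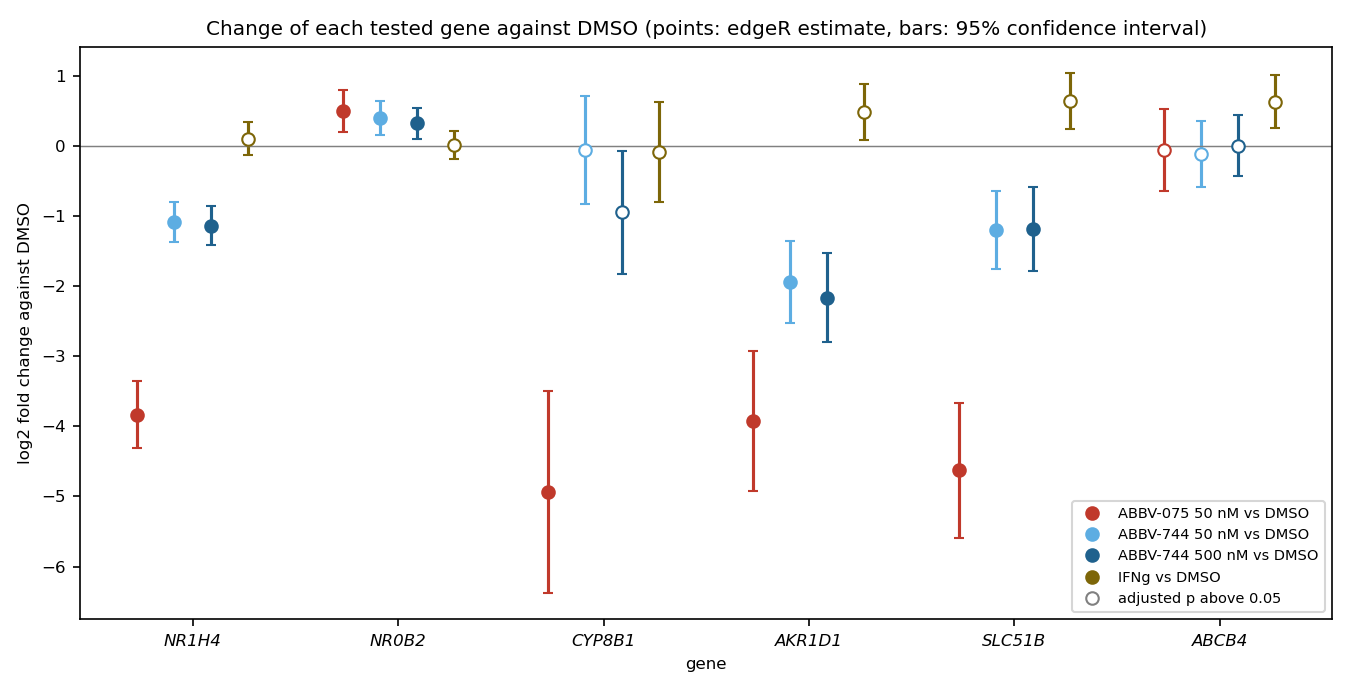
Log2 fold change against DMSO (vertical axis) of the 6 genes with enough counts to be tested, for ABBV-075, both doses of ABBV-744 and IFNg. Bars are 95% confidence intervals and open symbols mark an adjusted p above 0.05. NR1H4, AKR1D1 and SLC51B lie below 0 with every inhibitor, ABCB4 lies near 0 with each inhibitor, and the fitted CYP8B1 value with ABBV-075 rests on 1 count in 3 libraries.

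Of the synthesis enzymes, AKR1D1, the steroid reductase on chromosome 7 from 138002324 to 138118305 (plus strand), had the most reads. It was at 13.4, 9.97 and 10.7 CPM with DMSO and at 1.44, 0.573 and 0 CPM with ABBV-075. The latter libraries held 8 counts in all against 140, and the fitted level was 15.2-fold lower (7.64 to 30.2, adjusted p = 6.40e-05). When single libraries were left out, the log2 fold change of -3.93 ran from -5.13 to -3.42. These extremes came without ABBV-075 replicate 1 and without ABBV-075 replicate 3. With ABBV-744, AKR1D1 was at 2.68, 2.82 and 3.17 CPM at 50 nM. At 500 nM it was at 3.48, 1.60 and 2.30 CPM. Both doses lay below all DMSO libraries, with reductions of 3.84-fold (2.55 to 5.78, adjusted p = 5.97e-05) and 4.48-fold (2.89 to 6.94, adjusted p = 1.10e-05). The calls were made with the GC correction too, at log2 fold changes of -1.70 and -2.03.

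CYP8B1, the sterol hydroxylase on chromosome 3 from 42856005 to 42875898 (minus strand), had 12, 18 and 16 counts with DMSO and 1, 0 and 0 with ABBV-075. The ratio of the summed levels was 40.5-fold lower, with a counting interval of 6.92 to 1636, and the gene was called (adjusted p = 1.81e-04). ABBV-744 at 50 nM left 10, 18 and 6 counts, which overlap with DMSO (log2 fold change -0.06, 95% confidence interval -0.84 to 0.72, adjusted p = 0.930). At 500 nM there were 5, 2 and 12 counts, and the fitted log2 fold change of -0.95 was not called (adjusted p = 0.134). Without ABBV-744 500 nM replicate 3 it was -1.76 and was called (adjusted p = 0.0390).

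CYP7A1, the rate-limiting enzyme of the pathway (chromosome 8, 58490178 to 58500163, minus strand), had too few reads for the filter of the test. Its counts were 15, 12 and 2 with DMSO, so that the DMSO libraries themselves differed widely. All 3 libraries with ABBV-075 and all 3 with ABBV-744 at 500 nM had 0 counts. Against a floor of 3 counts over each group, the reduction was at least 8.52-fold with ABBV-075 and was at least 7.81-fold with ABBV-744, with the DMSO counts taken as measured. With the counting error of the DMSO libraries as well, the lower limits of the ratios were 6.50 and 5.95. ABBV-744 at 50 nM left 3, 1 and 0 counts, a level 5.65-fold lower with a counting interval of 1.98 to 22.1. These libraries overlap with DMSO, and the interval leaves out the spread between the DMSO libraries. When the filter was left out, edgeR called CYP7A1 lower against DMSO with ABBV-075 (adjusted p = 4.38e-05). It was also called with ABBV-744 at 500 nM (adjusted p = 4.36e-05) and at 50 nM (log2 fold change -2.41, adjusted p = 0.0121). Such intervals hold for counting error alone, since no molecular identifiers were used.

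Of the transporters, SLC51B (OSTbeta), the smaller subunit of the basolateral exporter (chromosome 15, 65045387 to 65053397), had the largest fitted reduction of the genes with more than 1 count in the ABBV-075 group. It was at 9.10, 9.97 and 9.76 CPM with DMSO and at 0.482, 0.573 and 0 CPM with ABBV-075, or 120 counts against 4. The fitted level was 24.8-fold lower (12.7 to 48.4, adjusted p = 1.76e-05). With ABBV-744 it was at 3.57, 4.39 and 4.44 CPM at 50 nM. At 500 nM it was at 2.90, 6.72 and 3.16 CPM. No library of either dose reached the lowest DMSO library, and the reductions were 2.30-fold (1.57 to 3.38, adjusted p = 0.00341) and 2.28-fold (1.5 to 3.46, adjusted p = 0.00593). The latter call was lost without ABBV-744 500 nM replicate 3 (adjusted p = 0.0550).

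SLC51A, the partner subunit (chromosome 3, 196211487 to 196243178), did not pass the filter on low counts with its 0, 3 and 3 counts with DMSO. It overlaps PCYT1A on the opposite strand, and 0 to 7 counts per library fell on that antisense strand. ABBV-075 left 0 counts in every library, but 1 DMSO library was at 0 too, so that the groups overlap. With the filter left out, SLC51A was not called for ABBV-075 against DMSO (log2 fold change -4.01, adjusted p = 0.101), and with the counting error of both groups the lower limit of the ratio was 1.04. With ABBV-744 the counts were 3, 5 and 1 at 50 nM and 1, 1 and 2 at 500 nM, both overlapping with DMSO.

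ABCB4, the phospholipid floppase of the bile canaliculus (chromosome 7, 87401696 to 87480435, minus strand), was the one tested gene with no call for any inhibitor given alone. It was at 9.63, 16.8 and 13.8 CPM with DMSO and at 18.3, 11.2 and 9.60 CPM with ABBV-075. With ABBV-744 it was at 16.4, 9.09 and 11.7 CPM at 50 nM. At 500 nM it was at 13.6, 13.8 and 13.2 CPM. All groups overlapped, and the log2 fold changes were -0.06 (-0.64 to 0.53), -0.11 (-0.58 to 0.36) and 8.7e-04 (-0.43 to 0.43). For ABBV-075 the interval leaves room for a level up to 1.56-fold lower.

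The compounds were compared directly at 50 nM, and ABBV-744 was compared between its doses. At 50 nM, NR1H4 was 6.57-fold lower (4.48 to 9.63, adjusted p = 1.51e-04) and SLC51B 10.5-fold lower (4.49 to 24.4, adjusted p = 0.00195) with ABBV-075 than with ABBV-744. NR0B2 and ABCB4 were not called. Only 4 of the 10 genes passed the filter on low counts in this comparison and 2 of these were called lower, against 19.4% of all genes called lower and 21.4% called higher. When the filter was left out, CYP8B1 (log2 fold change -4.79), AKR1D1 (-1.94) and SLC51A (-4.73) were also called, as fitted values that rest on 1, 8 and 0 counts with ABBV-075. The log2 difference in NR0B2 was 0.12 (-0.22 to 0.46), and with the GC correction it was 0.49 and was called (adjusted p = 0.00263). That of ABCB4 was 0.08 (-0.58 to 0.73). Because the exposure to ABBV-744 is not given, a difference of compound and one of time cannot be told apart.

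Between 500 nM and 50 nM of ABBV-744, none of the 4 genes tested was called by edgeR or DESeq2, and 0 had an unadjusted p under 0.05. The log2 difference in NR1H4 was -0.05 (-0.39 to 0.30), that in NR0B2 -0.07 (-0.35 to 0.20), that in SLC51B 0.02 (-0.76 to 0.80) and that in ABCB4 0.12 (-0.36 to 0.60). For NR1H4 the interval leaves room for a level up to 1.31-fold lower at the higher dose, whereas for SLC51B it is much wider. In this comparison only 0.0274% of all genes were called lower and 0% higher. HEXIM1 was at 60.2 to 67.9 CPM at 50 nM and at 84.1 to 93.7 CPM at 500 nM, without overlap. The 4 genes tested overlapped between the doses, and the share of all genes that did so was not computed. The other members had too few reads for the filter, so their overlap says little.

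With IFNg alone, SLC51B and ABCB4 lay above every DMSO library, by 1.56-fold (1.18 to 2.05) and 1.55-fold (1.19 to 2.01), but neither passed the test, and NR1H4 and NR0B2 overlapped with DMSO. None of the 6 genes tested was called by edgeR or DESeq2, while 0.695% of all genes were called lower and 2.76% higher by edgeR. Of all calls 20.1% were lower, and 44.9% when scaled by size only. In edgeR 3 of the 6 had an unadjusted p under 0.05, and the share of all genes at that threshold was not computed. NR1H4 was at 59.6, 64.2 and 50.8 CPM (log2 fold change 0.10, -0.13 to 0.33) and NR0B2 at 71.1, 77.5 and 77.1 CPM (0.01, -0.19 to 0.22). Both ranges overlap with DMSO. SLC51B was at 13.9, 15.3 and 15.9 CPM, above every DMSO library, but the log2 fold change of 0.64 missed the threshold (0.24 to 1.04, adjusted p = 0.0665). ABCB4 was at 18.2, 21.5 and 23.5 CPM, also above every DMSO library, with a log2 fold change of 0.63 (0.25 to 1.01, adjusted p = 0.0508). This value stands at the threshold, and ABCB4 was called in 6 of 10 alternatives, among them the GC correction (adjusted p = 0.0188, range over the alternatives 0.0186 to 0.293). AKR1D1 was at 16.3, 18.6 and 12.6 CPM and overlapped with DMSO (log2 fold change 0.48, adjusted p = 0.235). CYP8B1 had 10, 16 and 11 counts with a log2 fold change of -0.09 (adjusted p = 0.946). CYP7A1 had 3, 5 and 5 counts, a level 1.91-fold lower with a counting interval of 0.961 to 4. SLC51A had 1, 8 and 6 counts. The ratio of its DMSO level to its IFNg level was 0.342 with a counting interval of 0.109 to 0.933, and with the filter left out it was not called (log2 fold change 1.49, adjusted p = 0.469).

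With IFNg present, ABBV-075 again lowered NR1H4, AKR1D1 and SLC51B, and ABCB4 was lower than with IFNg alone, though its interaction, given below, was not called. Of 5 genes tested, 4 were called lower and 1 higher, against 28.4% and 28.2% of all genes. NR1H4 was at 5.95, 5.16 and 3.01 CPM with both agents, 12.1-fold lower than with IFNg (9.22 to 16.0, adjusted p = 5.76e-18). AKR1D1 was at 0.248, 1.09 and 0 CPM, a reduction of 32.6-fold (17.9 to 59.4, adjusted p = 1.27e-12) from 168 to 5 counts. When single libraries were left out, its log2 fold change of -5.03 ran from -6.55 to -4.54. These extremes came without IFNg + ABBV-075 replicate 2 and without IFNg + ABBV-075 replicate 3. SLC51B was at 4.22, 1.63 and 1.80 CPM, which was 5.71-fold lower (3.79 to 8.61, adjusted p = 2.84e-09). These libraries all lay below those of IFNg alone. NR0B2 was at 80.9, 111 and 117 CPM, 1.36-fold higher (1.15 to 1.61, adjusted p = 0.00184). ABCB4 was at 14.9, 13 and 11.7 CPM, 1.59-fold lower (1.22 to 2.08, adjusted p = 0.00289). The ABCB4 levels with both agents lay within the range seen with DMSO. GC-corrected, the log2 fold changes were -3.95 for NR1H4, -5.37 for AKR1D1, -2.25 for SLC51B and -0.66 for ABCB4, all called. That of NR0B2 was 0.64, against 0.44 without the correction, and was called both ways. CYP8B1 went from 37 counts to 1, a ratio of 38.4 with a counting interval of 6.47 to 1556. CYP7A1 went from 13 counts to 0, a level at least 4.49-fold lower with the IFNg counts as measured, and the lower limit with their counting error was 3.16. SLC51A went from 15 counts to 0, a level at least 5.18-fold lower, with a lower limit of 3.72 on the same terms.

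With IFNg, ABBV-744 at 50 nM lowered AKR1D1 and SLC51B and left NR1H4 where IFNg alone had it. Of 5 genes tested 2 were called lower and 0 higher, against 24.3% and 27.4% of all genes. NR1H4 was at 55.6, 52.5 and 54.0 CPM, within the range of IFNg alone (log2 fold change -0.09, -0.32 to 0.15, adjusted p = 0.552). With the GC correction it was called lower (log2 fold change -0.60, adjusted p = 2.28e-05), so the call depends on this correction. Of the BET inhibitor response genes, HEXIM1 overlapped with IFNg alone (38.6 to 55.4 CPM, against 44.7 to 49.2 CPM with IFNg), while MYC, which falls when BET proteins are blocked, was called lower (log2 fold change -0.64, adjusted p = 1.24e-06). Without IFNg, neither of these 2 genes was called for ABBV-744 at 50 nM against DMSO, before or after the GC correction. At 500 nM without IFNg 1 was called lower and 1 higher before the correction. With IFNg and the 50 nM dose, AKR1D1 was at 3.61, 4.51 and 3.03 CPM, 4.17-fold lower (2.91 to 5.99, adjusted p = 3.64e-08). SLC51B was at 8.67, 5.08 and 4.41 CPM, 2.40-fold lower (1.72 to 3.35, adjusted p = 3.41e-05). Both lay below all libraries of IFNg alone. NR0B2 was at 75.6, 78.1 and 78.9 CPM (log2 fold change 0.06, GC-corrected 0.40, adjusted p = 6.07e-04 with the correction). ABCB4 was at 23.1, 22.3 and 20.4 CPM (0.08, -0.24 to 0.40). CYP8B1 had 8, 1 and 1 counts, a level 3.94-fold lower by counts (1.92 to 8.87), and CYP7A1 had 3, 1 and 1.

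The higher dose of ABBV-744 with IFNg lowered 3 of the 5 genes tested and raised 0, against 22.8% and 22.9% of all genes. NR1H4 was at 42.5, 40.9 and 34.4 CPM, below all libraries of IFNg alone and 1.5-fold lower (1.25 to 1.80, adjusted p = 4.55e-04). The GC-corrected log2 fold change was -0.96, against -0.58 without the correction. AKR1D1 was at 3.32, 1.18 and 2.15 CPM, 7.22-fold lower (4.64 to 11.2, adjusted p = 7.74e-09). SLC51B was at 3.32, 1.48 and 3.99 CPM, 5.17-fold lower (3.43 to 7.78, adjusted p = 5.95e-08). Neither gene overlapped with IFNg alone. NR0B2 was at 73.4, 76.1 and 92.1 CPM (log2 fold change 0.09, GC-corrected 0.34, adjusted p = 0.00355 with the correction). ABCB4 was at 26.9, 18.1 and 18.7 CPM (-0.01, -0.37 to 0.35). CYP8B1 had 0, 0 and 1 counts against 37 with IFNg, a ratio of 33.5 with a counting interval of 5.65 to 1359, and CYP7A1 had 0, 1 and 1. In SLC51A 1 count was left of 15.

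Whether an inhibitor acted differently with IFNg was tested by the interaction of both agents in fits of 4 groups. For ABBV-075 none of 6 genes was called by edgeR or DESeq2, against 0.0173% of all genes called lower and 0.0173% higher in edgeR. In edgeR 1 of the 6 had an unadjusted p under 0.05, and the share of all genes at that threshold was not computed. The largest difference was that of SLC51B, whose reduction was smaller with IFNg by 2.09 on the log2 scale (0.68 to 3.50, adjusted p = 0.573). That of ABCB4 was -0.63 (-1.32 to 0.06, adjusted p = 0.760). For ABBV-744 at 50 nM the interaction of NR1H4 was 0.98 (0.62 to 1.34, adjusted p = 4.06e-05), so its reduction was smaller with IFNg. With the GC correction it was 0.26 and was not called (adjusted p = 0.267). The interaction of NR0B2 was -0.36 (adjusted p = 0.0455) and turned to 0.22 with the correction, and that of CYP8B1 was -1.89 (adjusted p = 0.0237) and was not called with it. In this comparison 26.5% of all genes were called lower and 25% higher, so the call of 3 of the 6 genes is near the background. The median interaction of all genes was -0.14, and it was 0.04 with scaling by size only and -0.02 with the GC correction. The share of lower calls was 51.5%, and 33.9% when scaled by size only.

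For ABBV-744 at 500 nM, the interactions called were those of NR1H4 at 0.58 (0.20 to 0.96, adjusted p = 0.0169), CYP8B1 at -3.71 and SLC51B at -1.16 (-2.07 to -0.25, adjusted p = 0.0431). Of all genes 15% were called lower and 18.5% higher, so 44.7% of the calls were lower, against 32.3% when scaled by size only and 55.0% with the GC correction. The GC-corrected values were 0.05 for NR1H4 and -0.88 for SLC51B, neither of them called. CYP8B1 was called both ways (GC-corrected -3.43, adjusted p = 0.0233), but it had 1 count with IFNg + ABBV-744 at 500 nM, so this fitted value depends on how counts of 0 are treated.

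**Figure D3:**
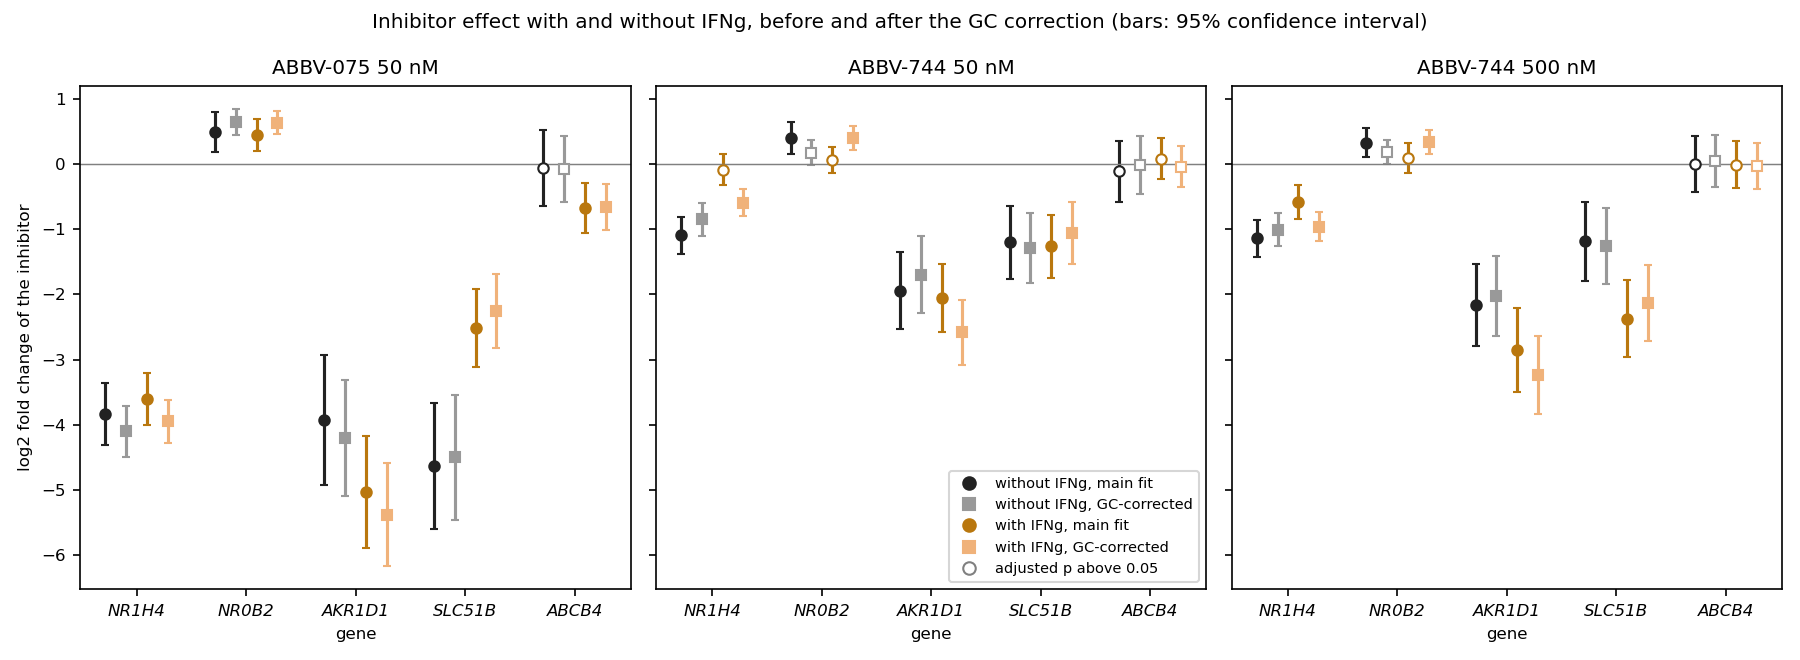
Log2 fold change of each inhibitor treatment (vertical axes) without IFNg, against DMSO, and with IFNg, against IFNg alone, for NR1H4, NR0B2, AKR1D1, SLC51B and ABCB4, 1 panel an inhibitor treatment. Values before and after the GC correction are drawn side by side with 95% confidence intervals. For ABBV-744 at 50 nM, NR1H4 is at -1.09 and -0.09 before the correction and at -0.85 and -0.60 after it. For ABBV-075, NR1H4 is at -3.83 and -3.60 before the correction and at -4.10 and -3.95 after it. SLC51B with ABBV-075 is at -4.63 without and -2.51 with IFNg before the correction.

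Other genes of bile acid biology, from lists compiled by role, were read in the same comparisons. Of 15 genes of bile acid synthesis, 9 were tested, and with ABBV-075 5 fell and 0 rose (19.6% and 19.8% of all genes), at a median log2 fold change of -0.90 where that of all genes was 0.03. BAAT, which conjugates bile acids to glycine or taurine, changed by -3.61 (adjusted p = 1.60e-04) and HSD3B7, the dehydrogenase after CYP7A1, by -1.97 (adjusted p = 9.73e-07). With ABBV-744 at 50 nM, 2 fell (BAAT -1.41 and HSD17B4 -0.41) and ACOT8 rose by 0.51, against 10.1% and 8.81% of all genes, at a median of -0.09. After the GC correction 2 fell and 0 rose, where that fit called 573 of 11116 genes lower and 623 higher. At 500 nM only BAAT was called, at -2.14, against 7.8% of all genes called lower, and the median was -0.21. At this dose 5 of the 9 genes were called lower with the GC correction, at a median of -0.27. That fit called 1059 of 11124 genes lower and 932 higher. With IFNg only HSD3B7 was called, at 0.72, against 2.76% of all genes called higher.

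Of 17 genes of bile acid and lipid transport and detoxification, 10 were tested. With ABBV-075 8 of them fell and 0 rose, where 19.6% of all genes fell and 19.8% rose (median -1.45), among them SULT2A1, the bile acid sulfotransferase, at -2.87 (adjusted p = 1.97e-07) and the canalicular pump ABCC2 at -2.16 (adjusted p = 2.03e-07). SULT2A1 went from a mean of 76.8 CPM (SD 1.92, n = 3) to 10.7 CPM (SD 1.13, n = 3). With ABBV-744 3 fell and 0 rose at each dose (medians -0.37 and -0.34), against 10.1% and 7.8% of all genes called lower. After the GC correction 2 fell at 50 nM and 4 at 500 nM, where 573 and 1059 of all genes were called lower. The transport and detoxification genes with the lowest values were SULT2A1 (-0.85 and -1.14) and ABCG2 (-0.71 and -1.30). With IFNg only SULT2A1 was called, at 0.58, against 2.76% of all genes called higher.

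Of 14 partners and regulators of FXR, 13 were tested, and the changes went both ways. With ABBV-075 5 fell and 1 rose (median -0.12), against 19.6% and 19.8% of all genes. NR5A2, the activator of CYP7A1 that NR0B2 inhibits, was at -0.93. The coactivator NCOA1 was at 1.07. With ABBV-744 at 50 nM 2 fell (NR5A2 -0.89, PPARGC1A -0.57) and 4 rose, with the partner receptor RXRA at 0.41, against 10.1% and 8.81% of all genes. The share that fell is thus near the background. With the GC correction 0 fell and 1 rose, where 573 of all genes were called lower and 623 higher. At 500 nM 1 fell (PPARGC1A, -0.84) and 2 rose, with HNF4A at 0.34, against 7.8% and 7.48% of all genes. With the GC correction 1 fell and 3 rose at this dose, where 1059 of all genes were called lower and 932 higher. With IFNg KLB, the co-receptor for FGF19, was the 1 gene called, at -0.40, against 0.695% of all genes called lower.

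Among 10 other genes known as FXR targets, 6 were tested. With ABBV-075 2 fell, namely SDC1 (-1.56) and the fibrinogen gene FGA (-0.64), at a median of -0.37, against 19.6% of all genes called lower. After the GC correction 4 of the 6 fell, where that fit called 2648 of 11244 genes lower. With ABBV-744 INSIG2 fell at both doses (-0.64 and -0.66) and SDC1 at 500 nM (-0.55), against 10.1% and 7.8% of all genes called lower. With IFNg 3 fell, all of them fibrinogen genes, with FGG at -0.50 and FGB at -0.47, against 0.695% of all genes. In none of these inhibitor comparisons was a gene of this list called higher before the GC correction. With it 1 was called higher at each dose of ABBV-744, where 623 (50 nM) and 932 (500 nM) of all genes were.

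**Figure D4:**
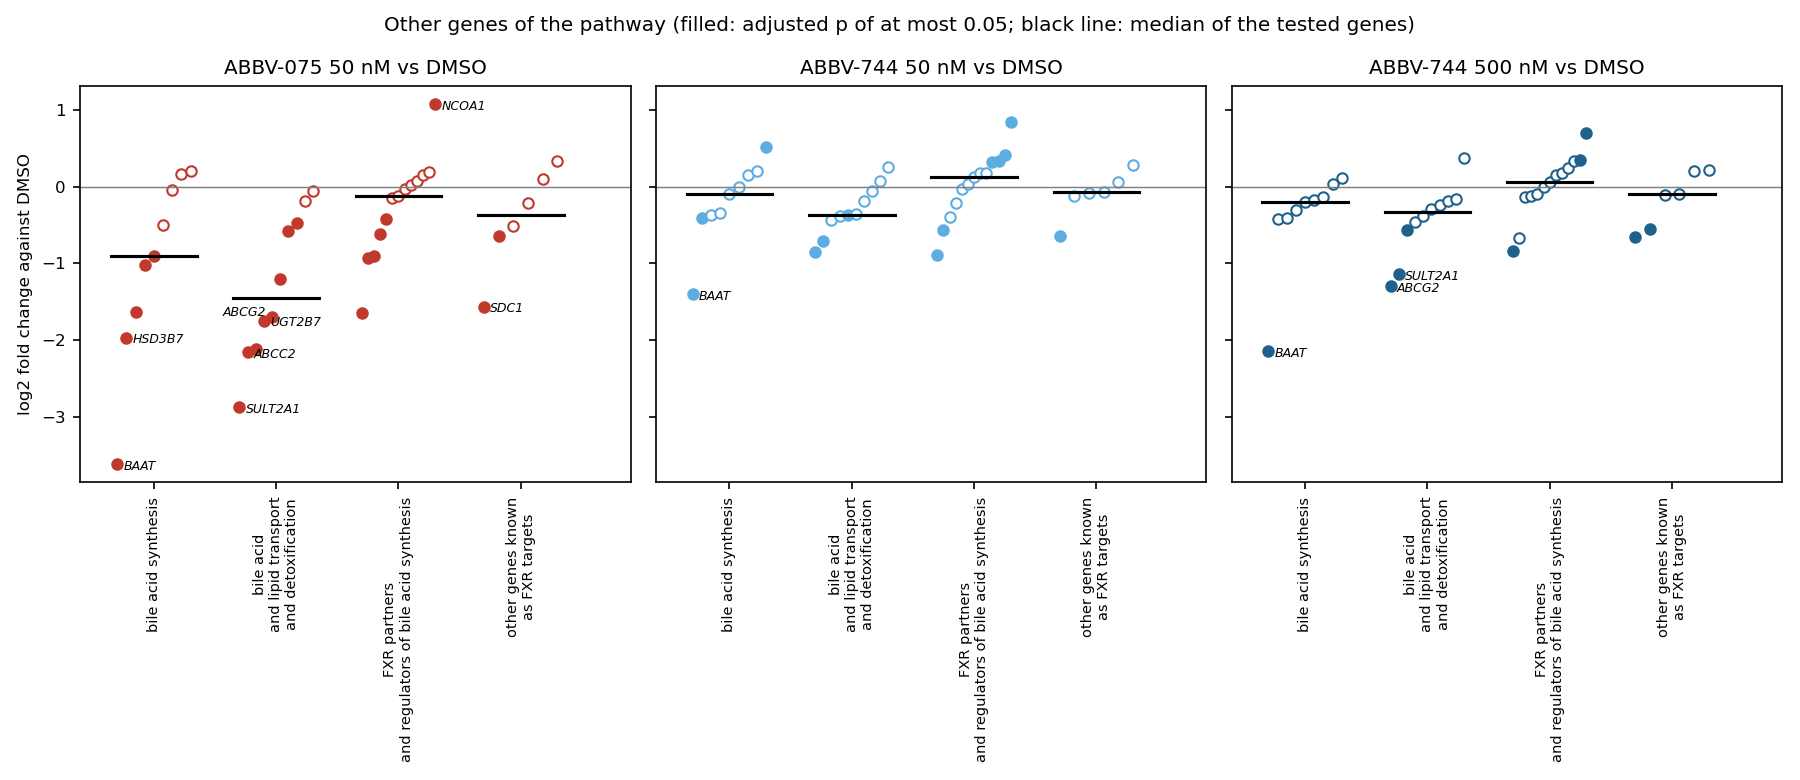
Log2 fold change against DMSO (vertical axis) of each tested gene of the 4 lists of bile acid and FXR genes, for ABBV-075 and both doses of ABBV-744. Filled points passed an adjusted p of 0.05 and black lines are medians over the tested genes of a list. The transport list has the lowest median with ABBV-075, at -1.45, and the partners spread to both sides of 0.

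Finally, the order of the groups was read for the genes with the most reads. NR1H4 had its highest means with IFNg (58.2 CPM, SD 6.82, n = 3), IFNg + ABBV-744 at 50 nM (54.0 CPM, SD 1.58) and DMSO (54.0 CPM, SD 5.44), which overlapped with their neighbours. IFNg + ABBV-744 at 500 nM stood alone at 39.3 CPM (SD 4.31), above the overlapping ABBV-744 groups at 50 nM (25.1 CPM, SD 2.41) and 500 nM (24.4 CPM, SD 1.02). The groups with ABBV-075 were lowest, at 4.71 CPM (SD 1.52) with IFNg and 3.79 CPM (SD 1.26) without, and they overlapped. AKR1D1 and SLC51B both had IFNg first and DMSO next, and all groups with an inhibitor lay below them. NR0B2 ran in nearly the opposite order, from 106 CPM (SD 16.4) with ABBV-075 to 74.3 CPM (SD 4.96) with DMSO, but each group overlapped with the next.

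Over the 8 group means of log2 CPM, the genes most like NR1H4 among 11675 others were CTPS2 (Pearson r = 0.993), ASB4 (0.990), ZBTB8A (0.989), UGT2B7 (0.989) and GCNT2 (0.987). The groups share reference libraries and depth, so these are descriptions. Among the 10 genes, AKR1D1 (0.868, rank 457 of 11675) and SLC51B (0.844, rank 575) came nearest, so many other genes lay closer to NR1H4. NR0B2 stood at -0.916 (rank 11488). UGT2B7, which glucuronidates bile acids and other compounds, had a mean of 17.0 CPM with DMSO and 5.13 CPM with ABBV-075, and ASB4 went from 8.04 to 0.914 CPM. CTPS2, an enzyme of nucleotide synthesis, went from 59.7 to 30.8 CPM between the same groups, a much smaller span than that of NR1H4.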

How the data were processed

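The authors depleted ribosomal RNA, sequenced directional libraries, trimmed reads with Trimmomatic 0.33 and aligned them to GRCh38 (hg38) with STAR 2.7.1. They deposited raw counts per gene symbol in each library, counted without regard to strand and on each strand separately. The annotation used for counting is not given in the sources used here. The column for the strand of the gene, which held 98.3% to 98.5% of the counts on either strand, was used here. All 24 libraries have a group from their labels.

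Comparisons were fitted in R 4.3.3 with edgeR 4.0.16 (filterByExpr, TMM, glmQLFit, glmQLFTest, two-sided), on the libraries of the groups compared and over all genes, and the standard error is the log2 fold change divided by the square root of F. The GC correction subtracts from each library a lowess curve (span 0.3) of log2 CPM deviations on GC content, available for 24542 symbols and all 10 genes. Other alternatives were DESeq2 1.42.0 with default parameters (the tool of the study), other normalizations and filters, unstranded counts, a fit of all 24 libraries, a block for the replicate number, and leaving out each library in turn. The fits were tried on simulated counts for some of the comparisons, with the changed genes drawn from those above a low level. A pass mark was set only for edgeR without the GC correction, on data without a GC trend. The simulation therefore says little on genes with few counts. Positions are from GENCODE v44 and promoter sequences from RefSeq on GRCh38.p14. Promoters of NR0B2, CYP8B1, CYP7A1, ABCB4 and FGF19 were not used here.

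The genes, the lists and the tests were chosen with earlier results of these data known. Named from the 4 lists were, per comparison against DMSO, up to 2 genes with the highest and up to 2 with the lowest log2 fold change among those called, and some of the genes this rule names are not reported here. Genes near NR1H4 were the 5 with the highest correlation over group means of log2 CPM (prior count 2).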

Additional observations from a re-analysis of the deposited data

Results flagged for a closer look

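For 4 of the genes, the effect of ABBV-744 differed between cells with and without IFNg by edgeR's test of the interaction, with Benjamini-Hochberg adjustment over all genes. At 50 nM 3 of 6 genes were called, where 26.5% of all genes were called lower and 25% higher, a count near the background, and at 500 nM 3 of 6, against 15% and 18.5%. DESeq2 called 1 of these genes at each dose. At 50 nM, the log2 effect on NR1H4 was less negative with IFNg by 0.98 (standard error 0.18, adjusted p = 4.06e-05), and at 500 nM by 0.58 (standard error 0.19, adjusted p = 0.0169). GC-corrected, these differences were 0.26 and 0.05, and neither was called. In the uncorrected fit at 500 nM, the NR1H4 call was also lost without IFNg replicate 3 or IFNg + ABBV-744 500 nM replicate 1 (adjusted p up to 0.0538). The correlation of library deviations with GC content was positive in all ABBV-744 50 nM libraries and negative in all IFNg + ABBV-744 50 nM libraries, and its part in the NR1H4 values was not tested.

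The NR0B2 difference at 50 nM was -0.36 (standard error 0.15, adjusted p = 0.0455), it was 0.22 after the GC correction, and its call was lost in 9 of 12 fits that left out 1 library. The CYP8B1 difference was -1.89 at 50 nM (adjusted p = 0.0237) and -3.71 at 500 nM (adjusted p = 0.00738), with 10 counts and 1 count over the libraries with IFNg and the inhibitor. GC-corrected, it was -1.5 and not called at 50 nM, and -3.43 and called at 500 nM. The call at 50 nM was also lost with DESeq2 (adjusted p = 0.0592), with library size only (adjusted p = 0.0527) and in 4 of 12 fits that left out 1 library, in which the value ran from -3.42 without IFNg + ABBV-744 50 nM replicate 1 to -1.38 without ABBV-744 50 nM replicate 2. Without ABBV-744 500 nM replicate 3 the call at 500 nM was lost (adjusted p = 0.0590). The SLC51B difference at 500 nM was -1.16 (standard error 0.45, adjusted p = 0.0431), so that its reduction was larger with IFNg, but it was -0.88 and not called after the GC correction, and its call was lost in 8 of 12 fits that left out 1 library. No gene among the 10 was called in the interaction of ABBV-075.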

How the results depend on the processing

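The reductions of NR1H4 and AKR1D1 with each inhibitor alone, of SLC51B and CYP8B1 with ABBV-075 alone, and of NR1H4, AKR1D1, SLC51B and ABCB4 with IFNg + ABBV-075 kept their direction and an adjusted p of at most 0.05 in every alternative that gave them one. DESeq2 gave none to AKR1D1, SLC51B and CYP8B1 for ABBV-744 at 50 nM against DMSO, nor to CYP8B1 in the interactions of ABBV-075 and of ABBV-744 at 500 nM. The rise of NR0B2 with ABBV-744 lost its call in the alternatives named above and with library size only (adjusted p = 0.0853 at 50 nM and 0.129 at 500 nM), in the fit of all 24 libraries (0.0556 and 0.124) and, at 500 nM, with DESeq2 (0.0989). For other values the cause was not tested. Depth limits CYP7A1, CYP8B1, SLC51A and FGF19, and ABCB11 was at 0.

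The counts of calls moved as follows, with the main count in brackets. With the thresholds of the study, the genes called were 481 (4424) for ABBV-075, 31 (2102) for ABBV-744 at 50 nM, 38 (1700) at 500 nM and 95 (388) for IFNg, each against DMSO. They were 690 (6331) for IFNg + ABBV-075, 257 (5766) for IFNg + ABBV-744 at 50 nM and 234 (5070) at 500 nM, each against IFNg. Between the doses of ABBV-744 they were 0 (3), between ABBV-075 and ABBV-744 421 (4481), and in the interactions 2 (4), 737 (5905) and 351 (3827) in the order of the inhibitors above. Of the 10 genes, 1 (4) was then called for each dose of ABBV-744 against DMSO, 3 (5) for IFNg + ABBV-075, 1 (2) for IFNg + ABBV-744 at 50 nM, and 1 (3) in each ABBV-744 interaction.

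With DESeq2, the genes called were 1157 for ABBV-744 at 50 nM and 977 at 500 nM against DMSO, 5 between the doses, and 14 in the ABBV-075 interaction. Of the 10 genes it called 2 for ABBV-744 at 50 nM, 8 for IFNg + ABBV-075 and 1 in each ABBV-744 interaction. Of all genes, DESeq2 called 2654 lower and 2617 higher for IFNg + ABBV-075. In the ABBV-744 interactions it called 2088 lower and 2722 higher at 50 nM, and 1264 and 1799 at 500 nM. With the GC correction, the genes called were 1196 for ABBV-744 at 50 nM against DMSO, 3842 for IFNg + ABBV-744 at 50 nM, 16 between the doses, and 27, 2335 and 1915 in the interactions. Of the 10 genes, 1 was called for IFNg (ABCB4), 4 for IFNg + ABBV-744 at 50 nM, 0 in its interaction and 1 in that of the 500 nM dose. For IFNg the GC-corrected fit called 127 of all genes lower and 382 higher. Without a filter on low counts, 13 genes were called between the doses and 45 in the ABBV-075 interaction, and of the 10 genes 1 for IFNg, 8 for IFNg + ABBV-075, 5 for IFNg + ABBV-744 at 500 nM and 5 between ABBV-075 and ABBV-744. In those fits 113 of all genes were called lower and 346 higher for IFNg, and 3280 and 3300 for IFNg + ABBV-075. For IFNg + ABBV-744 at 500 nM they were 2499 and 2610, and between the compounds 2123 and 2576. With a mean CPM of at least 1, 1 of the 10 genes was called for IFNg and 4 between the compounds. There 80 of all genes were called lower and 331 higher for IFNg, and 2160 and 2427 between the compounds. With unstranded counts 1 of the 10 genes was called for IFNg, where 79 of all genes were called lower and 303 higher. The fit of all 24 libraries called 9 genes between the doses and 4 of the 10 genes between the compounds, and library size only left 1 in the interaction of ABBV-744 at 50 nM. Of all genes, the fit of all 24 libraries called 2901 lower and 3124 higher between the compounds. Library size only called 1740 lower and 3386 higher in that interaction.

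The replicate numbers were not treated as pairs, since in no comparison were all correlations between same-numbered libraries over 0.1. Between the doses of ABBV-744 and for IFNg + ABBV-075 against IFNg, 5 of 6 libraries correlated best with their own number, for IFNg + ABBV-744 at 500 nM 4 of 6, and in the other comparisons 0 to 2. In none did every library do so, and these are hints from the data only. With the replicate number as a block, 320 genes in place of 3 were called between the doses of ABBV-744, and 1 of the 10 genes (ABCB4) for IFNg. For IFNg the fit with the block called 39 of all genes lower and 251 higher. The NR0B2 calls for ABBV-744 at 500 nM and in the interaction at 50 nM were lost (adjusted p = 0.105 and 0.0528). With the block and the GC correction together, 903 genes were called for ABBV-744 at 50 nM against DMSO, 3801 for IFNg + ABBV-744 at 50 nM, 143 between the doses, and 27, 2300 and 1824 in the interactions. The counts over the 10 genes were those of the GC correction, at 1, 4, 0 and 1. For IFNg 71 of all genes were then called lower and 308 higher.

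Signs turned mainly in values that were not called. For ABCB4 at 500 nM of ABBV-744 against DMSO the log2 value was -0.073 with library size only, -0.0040 without a filter and -0.0034 in the fit of all libraries. For ABCB4 with IFNg + ABBV-744 at 500 nM it was 0.025 with DESeq2, 0.015 with RLE, 0.027 with library size only, 0.0035 without a filter and 0.0056 in the fit of all libraries. For NR0B2 with IFNg it was -0.049 with library size only. Library size only also gave 0.039 for AKR1D1 and 0.099 for SLC51B in the interaction of ABBV-744 at 50 nM. With the GC correction, and with the block added, the values were -0.062 and -0.060 for NR0B2 with IFNg, -0.042 and -0.038 for ABCB4 with IFNg + ABBV-744 at 50 nM, 0.021 and 0.020 for NR0B2 between the doses, and -0.044 and -0.064 for ABCB4 between the compounds. In the same order, the interaction at 50 nM was 0.24 and 0.24 for SLC51B, 0.22 and 0.23 for NR0B2, and -0.012 and -0.017 for ABCB4, and that at 500 nM 0.15 and 0.15 for NR0B2 and -0.073 and -0.079 for ABCB4. The NR0B2 interaction at 50 nM was called before the correction.

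When single libraries were left out, the genes called ranged from 708 to 2671 for ABBV-744 at 50 nM and from 793 to 2003 at 500 nM, moving most without DMSO replicate 2, DMSO replicate 3 or the replicate 3 of the dose. They ranged from 0 to 10 between the doses, from 2651 to 5722 between the compounds and from 3 to 200 in the ABBV-075 interaction. Of the 10 genes 0 to 1 was called for IFNg and 1 to 3 in each ABBV-744 interaction. Of all genes, 270 to 549 were called for IFNg. In the ABBV-744 interactions 5251 to 5982 were called at 50 nM and 3002 to 3924 at 500 nM. Uncalled log2 values changed sign, for ABCB4 from -0.40 to 0.14 with ABBV-075, from -0.36 to 0.092 and from -0.18 to 0.21 with ABBV-744 at 50 and 500 nM, from -0.0085 to 0.15 and from -0.19 to 0.096 with IFNg + ABBV-744, from -0.054 to 0.37 between the doses, from -0.25 to 0.34 between the compounds, and from -0.039 to 0.42 and from -0.20 to 0.19 in the ABBV-744 interactions. For NR0B2 they ran from -0.018 to 0.072 with IFNg, from -0.0040 to 0.16 with IFNg + ABBV-744 at 500 nM, from -0.16 to 0.064 between the doses, from -0.0079 to 0.24 between the compounds and from -0.17 to 0.086 in the ABBV-075 interaction. For CYP8B1 they ran from -0.57 to 0.22 with ABBV-744 at 50 nM, from -0.35 to 0.067 with IFNg and from -1.81 to 1.97 in the ABBV-075 interaction. The others were NR1H4 between the doses (-0.10 to 0.023), SLC51B between the doses (-0.45 to 0.23) and in the interaction at 50 nM (-0.45 to 0.10), and AKR1D1 in the ABBV-075 interaction (-2.65 to 0.089).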
